A study of Drosophila melanogaster with 6 samples.

Results

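The genes described here encode proteins of the mitochondrial ribosome in wing imaginal discs of Drosophila melanogaster. They were chosen as the array features whose single platform gene symbol begins with mRpL (large subunit) or mRpS (small subunit) followed by a digit, with symbols updated through their Entrez numbers in RefSeq. This gave 68 genes of 11325 features, 43 of the large and 25 of the small subunit. RefSeq lists 73 fly genes with such symbols, of which 2 sit on features shared with another gene and 3 on no feature named here, and these 5 were not analysed here. Wing discs, from which the wing and part of the thorax of the adult fly develop, came from 2 genotypes with 3 single-channel arrays each. In both, the apterous driver (ap>), which acts in dorsal cells, expressed Yki, named YAP/Yki in the labels, the transcriptional coactivator that Hippo signalling restrains. In the second genotype, labelled YAP/Yki+dTcf/Pan-RNAi and called Yki + pan RNAi here, the driver also expressed an RNA interference construct against pan, the gene of dTcf, through which Wnt signalling acts on transcription. All discs were dissected 7 days after transgene induction. Discs without Yki and a control for the hairpin are not among the groups. Larval age and sex, pooling and separate crosses are not stated in the labels, so the p-values reflect the spread among these arrays, part of which may be technical.

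Mitochondria keep a small genome of their own, and the mitochondrial ribosome translates its few protein-coding transcripts, which encode core subunits of the respiratory chain and the ATP synthase. Its proteins are encoded in the nucleus, made in the cytoplasm and imported, while its ribosomal RNAs are transcribed inside the organelle. Some of them have counterparts in the bacterial ribosome and others were added during the evolution of mitochondria. In flies, reduced function of single mitoribosomal proteins slows growth and development, and mRpL12 is needed for the growth driven by cyclin D and Cdk4.

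Many mitoribosomal protein genes had lower levels in discs with pan RNAi, by small amounts. A gene is said to have fallen or risen when its adjusted p in limma, Benjamini-Hochberg over 11303 tested features, was under 0.05, and changes are Yki + pan RNAi minus Yki on the log2 scale with the SE of the fit, n = 3 arrays per group. By this rule 31 of the 68 genes (45.6%) fell and 0 rose, also at an unadjusted p under 0.05, where 44 were lower and 0 higher. Over all features, 13.4% fell and 12.1% rose, and 19.1% were lower and 20.4% higher at the unadjusted p. The median change was −0.19 over the 68 genes and 0.03 over all features. The falls ran from −0.165 for mRpL37 to −0.59 for mRpL14, or from 1.12-fold to 1.51-fold (mRpL14 and mRpS35), so that 0 of the 68 reached the 2-fold minimum that the submitters used, which 1.27% of all features passed as lower. In 48 of the 68 genes every pan RNAi array lay below every Yki array, and in 1 every pan RNAi array lay above. Over all features the groups did not overlap in this way in 21.6% (lower) and 23.4% (higher). The change was below 0 in 63 of the 68 genes, against 42.8% of all features. In bulk discs, fewer cells of a type and less RNA per cell cannot be told apart.

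How many genes passed depended on single arrays. The count of 31 became 28 without Yki replicate 1, 20 without Yki replicate 2, 14 without Yki replicate 3, and 20, 17 and 20 without Yki + pan RNAi replicates 1, 2 and 3. In those fits the share of all features that fell was also smaller, at 8.66% to 11.3%. With each array centred on its median, 17 of the 68 fell, and over all features 9.61% fell and 18.5% rose. The median over all 68 genes kept its sign there, at −0.14.

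**Figure D1:**
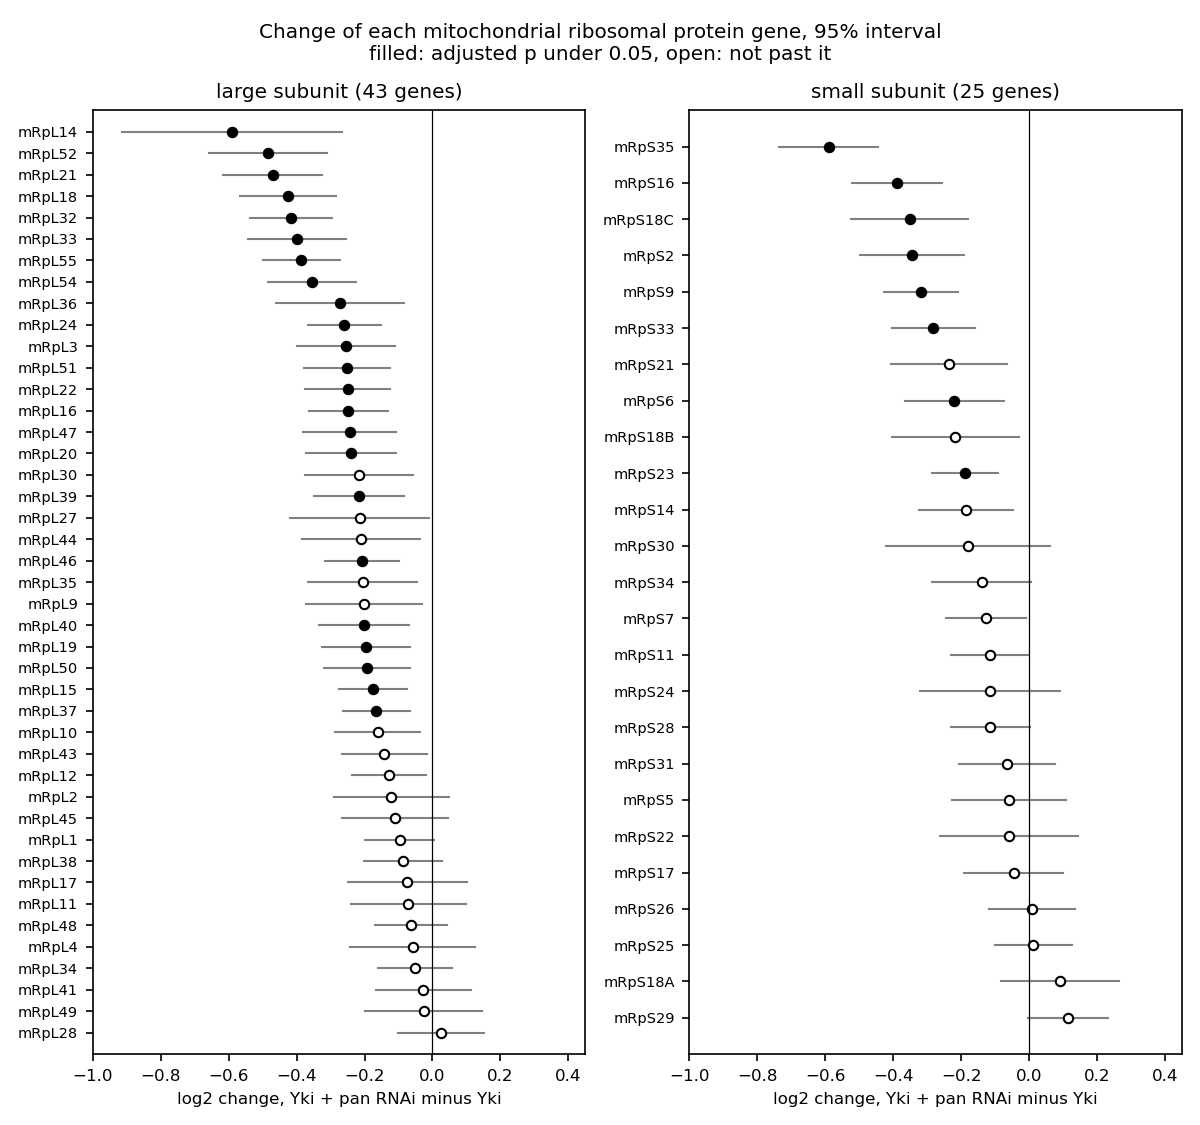
Log2 change (x axis) of each mitoribosomal protein gene (y axis) in the large (left) and small (right) subunit, with 95% intervals from limma. Filled points passed an adjusted p of 0.05. All filled points lie below 0, from −0.165 to −0.59, and the 5 points above 0 are open.

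The large subunit holds the peptidyl transferase centre, where peptide bonds form, and the exit tunnel. Of its 43 genes 23 fell (53.5%) and 0 rose, with a median change of −0.21, quartiles of −0.25 and −0.12, and 42 changes below 0. Of the 25 genes of the small subunit, which decodes the transcript, 8 fell (32.0%) and 0 rose, with a median of −0.14, quartiles of −0.24 and −0.06, and 21 changes below 0. The difference between the subunits was not tested. Without Yki + pan RNAi replicate 1 the medians of the large and the small subunit were −0.21 and −0.19. With each array centred on its median, 11 genes of the large and 6 of the small subunit fell, with medians of −0.152 and −0.085. In mammalian structures the proteins named mRpS18A and mRpS30 here sit in the large subunit. Counted there, 23 of 45 large and 8 of 23 small subunit genes fell.

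The small subunit gene mRpS35, which encodes a protein with no bacterial counterpart, had the lowest p. Its level was 9.52, 9.56 and 9.67 in the Yki arrays and 9.05, 8.91 and 9.02 with pan RNAi. All 3 pan RNAi arrays were lower than all Yki arrays, and the change was −0.59 ± 0.06 (adjusted p = 0.00145), which leaves 66.5% of the Yki level. The gene mRpS2, with a bacterial counterpart, stood at 9.56, 9.38 and 9.37 without and 9.03, 9.12 and 9.12 with pan RNAi, Yki replicate 1 being the highest, and it changed by −0.35 ± 0.06 (adjusted p = 0.0104). For mRpS9, a protein of the subunit's head, the values were 10.10, 10.16 and 10.18 against 9.80, 9.85 and 9.83, with little spread in either group and a change of −0.32 ± 0.05 (adjusted p = 0.00425). The gene mRpS16, whose human counterpart is mutated in a respiratory chain disease, was among the dimmer members, at 7.21, 7.20 and 7.27 against 6.81, 6.77 and 6.92, and changed by −0.39 ± 0.06. In mRpS33, another protein without a bacterial counterpart, the levels were 9.81, 9.76 and 9.81 against 9.56, 9.53 and 9.43 (−0.28 ± 0.05). In each of these 5 genes every pan RNAi array lay below every Yki array, as in all 31 genes that fell.

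Other small subunit genes that fell were mRpS18C (−0.35 ± 0.07), a member of the bacterial S18 family, mRpS23 (−0.19 ± 0.04) and mRpS6 (−0.22 ± 0.06, adjusted p = 0.0405). The call of mRpS18C ended without Yki replicate 3 (adjusted p = 0.052). That of mRpS23 ended without Yki replicate 2, Yki replicate 3 or Yki + pan RNAi replicate 2 (adjusted p = 0.0516 to 0.0654). That of mRpS6 ended without any of the arrays but Yki + pan RNAi replicate 1 (0.077 to 0.106). Just past the threshold lay mRpS21 (7.99, 7.98 and 7.99 against 7.84, 7.82 and 7.60, adjusted p = 0.0528) and mRpS14 (adjusted p = 0.0572), in which the groups also did not overlap. The 4 small subunit genes with a change above 0 were mRpS29, mRpS18A, mRpS25 and mRpS26. The first of them encodes a GTP-binding protein known in humans as the death-associated protein DAP3. Its level was 10.76, 10.65 and 10.69 without and 10.84, 10.77 and 10.83 with pan RNAi, so that every pan RNAi array was higher, but its change of 0.11 ± 0.05 did not pass (adjusted p = 0.132). The smallest changes were those of mRpS26 (0.01, interval −0.12 to 0.13) and mRpS25 (0.01, interval −0.10 to 0.13). These intervals leave out the change of mRpS35.

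In the large subunit, 8 genes passed in each of the 6 fits without 1 array and also after median centring, and 5 of the small subunit did so, those described first above. The 8 were mRpL18, mRpL21, mRpL24, mRpL32, mRpL33, mRpL52, mRpL54 and mRpL55. The protein mRpL32 has a bacterial counterpart, and in yeast and mouse its precursor is cut by a protease of the inner membrane before it joins the ribosome. Its gene was at 10.86, 10.77 and 10.89 in the Yki arrays and at 10.40, 10.41 and 10.47 with pan RNAi (−0.42 ± 0.05, adjusted p = 0.00252). The groups were separated by more than the spread within either. For mRpL55, which is essential for fly development, the arrays read 9.08, 9.19 and 9.14 against 8.78, 8.73 and 8.75 (−0.39 ± 0.05, adjusted p = 0.00265). The levels of mRpL21 were 9.46, 9.36 and 9.32 against 8.98, 8.82 and 8.93, with a change of −0.47 ± 0.06. Both encode proteins with bacterial counterparts, and in both the 3 pan RNAi arrays lay well below the lowest Yki array.

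The protein mRpL18 belongs to the central protuberance, the part of the subunit that faces the head of the small subunit. Its gene was measured at 9.59, 9.65 and 9.72 without and 9.28, 9.14 and 9.26 with pan RNAi (−0.43 ± 0.06, adjusted p = 0.00393). The mitochondria-specific gene mRpL52 read 10.30, 10.37 and 10.48 against 9.92, 9.79 and 9.99, a change of −0.48 ± 0.07. In 6 of the 8 genes, as here, pan RNAi replicate 2 was the lowest array. Another mitochondria-specific gene, mRpL54, read 9.39, 9.54 and 9.53 against 9.14, 9.16 and 9.10 (−0.35 ± 0.05). The levels of mRpL33 were 9.28, 9.23 and 9.34 against 8.98, 8.81 and 8.86 (−0.40 ± 0.06). With the smallest change of the 8, mRpL24, whose bacterial counterpart starts the assembly of the large subunit, read 10.50, 10.54 and 10.59 against 10.28, 10.26 and 10.30 (−0.26 ± 0.05, adjusted p = 0.00838).

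**Figure D2:**
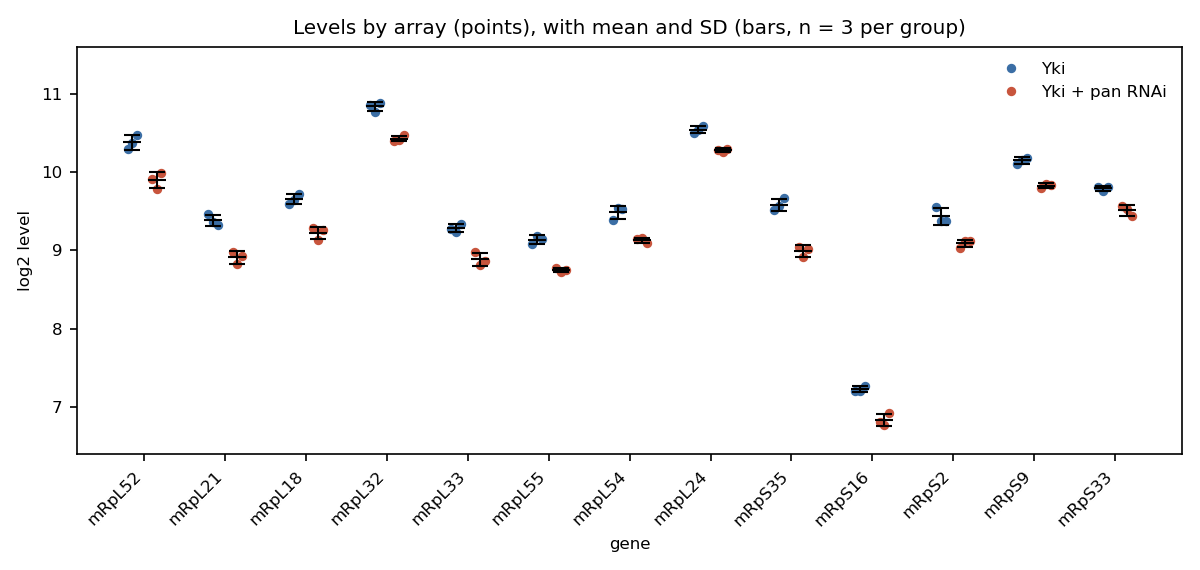
Log2 level (y axis) in each array of the 13 genes (x axis) that fell in every fit without 1 array, 8 of the large and 5 of the small subunit. Points are arrays, Yki at left and Yki + pan RNAi at right of each pair, and bars give the mean and SD (n = 3). In every gene the groups do not overlap, which holds for all 31 genes that fell.

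The largest change of the large subunit was that of mRpL14, a protein at the interface between the subunits, and it was also the most variable. Its Yki arrays were at 10.53, 10.63 and 10.65, and its pan RNAi arrays were spread over 10.26, 9.70 and 10.08, the widest SD (0.29) of any member in that group. The change was −0.59 ± 0.14 with an interval of −0.91 to −0.27 (adjusted p = 0.0216). Its call ended without Yki replicate 2 or Yki replicate 3 (0.0656 and 0.069). Another 14 genes had changes between −0.27 and −0.165. They were mRpL16, mRpL51, mRpL22, mRpL46, mRpL20, mRpL47, mRpL3, mRpL15, mRpL37, mRpL39, mRpL19, mRpL50, mRpL40 and mRpL36, the last of them dim, with levels of 5.80 to 5.84 with pan RNAi. Of these mRpL3 lies near the peptidyl transferase centre, and mRpL16 near the site where the incoming tRNA is held. The first of them, mRpL16 (10.49, 10.49 and 10.43 against 10.19, 10.29 and 10.18), and mRpL22 (9.86, 9.90 and 9.98 against 9.70, 9.61 and 9.68), which lines the exit tunnel, each changed by −0.25 ± 0.05. The calls of 18 of the 31 genes that fell ended without 1 array or another. Among those with the lowest p, that of mRpL16 ended without Yki replicate 2 or Yki + pan RNAi replicate 1 (adjusted p = 0.0503 in both). That of mRpL22 ended without Yki replicate 2, Yki replicate 3 or Yki + pan RNAi replicate 2 (0.0503 to 0.0532), and that of mRpL51 without the same arrays (0.0506 to 0.0587). The call of mRpL37, the gene with the smallest fall, ended in each of the 6 fits without 1 array (0.0512 to 0.0884). The call of mRpL46 ended without Yki replicate 3 or any of the pan RNAi arrays (0.0505 to 0.065).

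Of the 20 large subunit genes that did not pass, 19 had changes below 0. Among them was mRpL12, the stalk protein named above for its part in growth. Its level was 9.56, 9.51 and 9.58 without and 9.46, 9.41 and 9.40 with pan RNAi, with all pan RNAi arrays lower and a change of −0.13 ± 0.05 (adjusted p = 0.0823, interval −0.24 to −0.02). The stalk recruits the elongation factors, and of its 3 measured genes (mRpL10, mRpL11 and mRpL12) 0 passed, with 2 lower at an unadjusted p under 0.05. The only change above 0 in the large subunit was that of mRpL28 (0.03 ± 0.05, adjusted p = 0.755), and mRpL49 stood at 7.95, 7.79 and 7.73 against 7.72, 7.86 and 7.81 (−0.03 ± 0.07, interval −0.20 to 0.15) with overlapping groups. The other genes that did not pass were mRpL1, mRpL2, mRpL4, mRpL9, mRpL17, mRpL27, mRpL30, mRpL34, mRpL35, mRpL38, mRpL41, mRpL43, mRpL44, mRpL45 and mRpL48 in the large subunit. In the small subunit they were mRpS5, mRpS7, mRpS11, mRpS17, mRpS18B, mRpS22, mRpS24, mRpS28, mRpS30, mRpS31 and mRpS34. Of the 37 genes of both subunits that did not pass, 32 had a change below 0 and 17 had all pan RNAi arrays below all Yki arrays. Over all features, called or not, these shares were 42.8% and 21.6%. The 95% intervals of the 37 genes lay between −0.42 and 0.26. For 31 of the 37 the interval held the smallest fall that passed, −0.165.

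Genes that fell encoded proteins of both origins. Of 43 genes whose proteins have a bacterial counterpart, 20 fell, with a median change of −0.21, and of 25 genes of mitochondria-specific proteins 11 fell, with a median of −0.165. Without Yki replicate 3 the counts were 10 of 43 and 4 of 25. Without Yki + pan RNAi replicate 2 they were 13 and 4, and without Yki replicate 2 or Yki + pan RNAi replicate 1 or 3 they were 14 and 6. Within the large subunit the 2 classes had 15 of 28 and 8 of 15 genes lower, with medians of −0.22 and −0.19. Within the small subunit they had 5 of 15 and 3 of 10, with medians of −0.19 and −0.10. Without Yki replicate 3 these became 7 and 2 in the large and 3 and 2 in the small subunit. By place in mammalian structures, 4 of 7 genes of the central protuberance fell (mRpL18, mRpL55, mRpL46 and mRpL40). In the whole large subunit 23 of 43 genes fell, and 13.4% of all features did. In each of the 7 every pan RNAi array lay below every Yki array. The same held for 33 of the 43 large subunit genes and for 21.6% of all features. The count of 4 was 2 without Yki replicate 3 or any of the pan RNAi arrays. Of 6 genes of the exit tunnel 3 fell (mRpL22, mRpL24 and mRpL47), and 1 did without Yki replicate 2 or Yki replicate 3. Among the 3 that did not pass was mRpL45, which in mammals anchors the ribosome to the inner membrane (7.33, 7.14 and 7.29 against 7.11, 7.21 and 7.10, adjusted p = 0.251). None of the differences between these classes was tested.

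Within the groups the arrays did not rank alike for all genes. The lowest of the 6 values was in pan RNAi replicate 2 for 29 genes, in replicate 3 for 23, in replicate 1 for 11 and in a Yki array for 5. The highest value was in Yki replicate 3 for 33 genes, in replicate 1 for 20, in replicate 2 for 7 and in a pan RNAi array for 8. Each gene's level was set against its mean over the 6 arrays, and the median of these deviations over the large subunit was 0.08, 0.08 and 0.13 in the Yki arrays and −0.08, −0.12 and −0.10 with pan RNAi. For the small subunit it was 0.11, 0.05 and 0.11 against −0.04, −0.11 and −0.10. In both subunits the 2 groups of arrays lay apart, with gaps of 0.158 (large) and 0.09 (small) between them and ranges within a group of at most 0.057 and 0.068. With each array centred on its median the groups were still apart, but the gaps of 0.07 and 0.05 were smaller than the widest range within a group, 0.084 and 0.096.

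**Figure D3:**
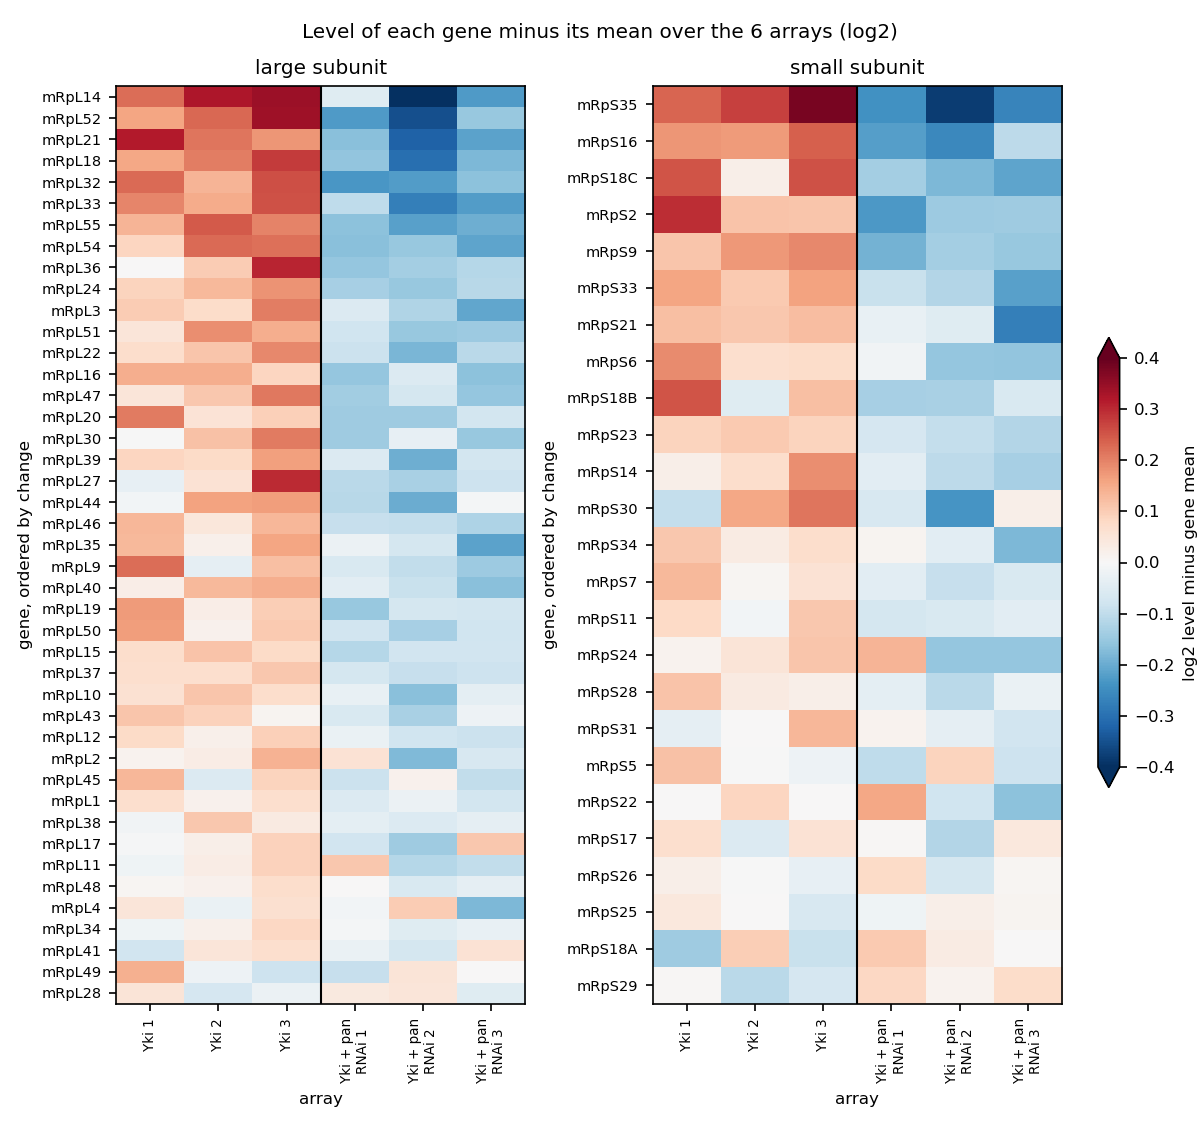
Log2 level of each gene (rows, ordered by change) minus its mean over the 6 arrays (columns), large subunit at left and small subunit at right, red above and blue below the gene's mean. Most rows turn from red in the 3 Yki arrays to blue in the 3 pan RNAi arrays, and the lowest rows, such as mRpL28 and mRpS29, do not.

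Of the 68 genes, 39 have a RefSeq span that overlaps that of another gene, among them 15 of the 31 that fell. Which strand the features read is not known here, so whether the features of such a pair share signal cannot be told. Of the 29 genes without such an overlap, 16 fell, with a median change of −0.21. Without Yki replicate 3, 6 of these 29 and 8 of the 39 overlapping genes fell. The count of 16 was 13 without Yki replicate 1, 10 without Yki replicate 2, and 10, 7 and 9 without Yki + pan RNAi replicates 1, 2 and 3. A single-symbol feature was measured for 36 of the overlapping genes, of which 8 fell and 1 rose, where 13.4% and 12.1% of all features did. Of those 8, 4 overlap genes among the 31 that fell, and the rest overlap mRpL2, mRpL4, mRpL11 and mRpL34, which did not pass. Among the 13 genes that passed in every fit without 1 array, 7 have a measured overlapping gene, and beside 4 of them it fell. Beside mRpL18, ox, a gene of respiratory complex III, changed by −0.36 ± 0.09 (adjusted p = 0.0267), and beside mRpL32, CG1750 changed by −0.24 ± 0.06. The call of ox ended without Yki replicate 3 or any of the pan RNAi arrays (0.0551 to 0.0737), and that of CG1750 without any array but Yki + pan RNAi replicate 1 (0.0635 to 0.105). Beside mRpS16, ReepB changed by −0.23 ± 0.06 (adjusted p = 0.0237), and beside mRpS2, CG11927 changed by −0.18 ± 0.05 (adjusted p = 0.0307). The call of ReepB ended without any array but Yki replicate 2 and Yki + pan RNAi replicate 2 (0.0553 to 0.0772), and that of CG11927 without any of the 6 arrays (0.0563 to 0.093). Beside mRpS9, the synthetase gene ArgRS-m was at 0.07 ± 0.05 (adjusted p = 0.317) and wtrw at 0.03. The overlapping genes of mRpL24 (synr, 0.07 ± 0.07) and mRpS33 (CG14881, −0.10 ± 0.05) did not pass either. Nor did mRpL34 pass (adjusted p = 0.439), while CG8414, which overlaps it, changed by −0.415 ± 0.05 (adjusted p = 0.00177).

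Of 2 mitoribosomal proteins known by other symbols, 1 fell. The gene bonsai encodes the small subunit protein S15 and takes its name from the small size of its mutants. Its level was 9.09, 8.98 and 9.04 without and 8.77, 8.71 and 8.62 with pan RNAi, with separate groups and a change of −0.34 ± 0.06 (adjusted p = 0.00734). The gene tko encodes S12, a protein of the decoding site, and its mutants are seizure-prone. Its values of 8.59, 8.37 and 8.57 against 8.46, 8.49 and 8.53 overlapped (−0.02 ± 0.07, adjusted p = 0.882).

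Other steps of mitochondrial gene expression were described by lists chosen by symbol. In all 10 translation factor genes the change was below 0, as in 42.8% of all features, and the list median was −0.17. Where 13.4% of all features fell and 12.1% rose, 3 of these 10 genes fell and 0 rose. They were mRRF1 (7.77, 7.82 and 7.86 against 7.36, 7.46 and 7.53, −0.37 ± 0.06), which helps to split the ribosome after termination, mIF3 (8.27, 8.27 and 8.30 against 8.03, 8.02 and 7.93, −0.28 ± 0.05), an initiation factor that binds the small subunit, and mEFTs (−0.24 ± 0.05), an exchange factor of elongation. In all 3, and in 5 of the 10, every pan RNAi array lay below every Yki array, beside 21.6% of all features. The count of 3 was 2 without Yki replicate 3 or Yki + pan RNAi replicate 1 or 3, and 5 without Yki + pan RNAi replicate 2. Of 13 mitochondrial aminoacyl-tRNA synthetase genes, which charge the tRNAs that the ribosome uses, AsnRS-m alone fell (−0.28 ± 0.06, adjusted p = 0.0172), with a list median of −0.04. That share of 7.69% is below the 13.4% of all features. Of 15 genes of mitochondrial transcription and RNA processing 2 fell, 13.3% beside 13.4% of all features. They were mTTF (−0.21 ± 0.04), which binds mitochondrial DNA at termination sites, and the RNA helicase gene Suv3 (−0.39 ± 0.08), with a median of −0.09. The gene TFAM, which packages the mitochondrial genome, and the polymerase gene PolrMT had values of −0.005 ± 0.04 and −0.004 ± 0.06 (adjusted p = 0.939 and 0.967). The call of mEFTs ended without Yki replicate 3, Yki + pan RNAi replicate 1 or replicate 3 (0.0523 to 0.0675), that of Suv3 without Yki replicate 2 or Yki + pan RNAi replicate 1 (0.0538 and 0.0513), and that of AsnRS-m without Yki + pan RNAi replicate 2 (0.0506).

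Of 4 measured genes of mitochondrial DNA replication 2 rose and 0 fell, beside 12.1% and 13.4% of all features. These were the polymerase gene PolG1 (8.18, 8.17 and 8.25 against 8.42, 8.52 and 8.46, 0.27 ± 0.05, adjusted p = 0.0109) and Top3alpha, a topoisomerase that also serves the nucleus (0.37 ± 0.05). Of 17 protein import genes 3 fell and 1 rose (17.6% and 5.88%, beside 13.4% and 12.1% of all features), with a median of −0.05. Those that fell were Tom7 (−0.57 ± 0.05), Tim9a (−0.50 ± 0.05) and Tim23 (−0.23 ± 0.05), and the dim Tim17b2 rose (0.32 ± 0.09, adjusted p = 0.0389). Of 9 chaperone and protease genes 2 fell, Hsc70-5 (−0.29 ± 0.05) and Hsp60A (−0.32 ± 0.09), with a median of −0.06. That share is 22.2%, beside 13.4% of all features. Leaving out any array but Yki + pan RNAi replicate 2 ended the call of Hsp60A (adjusted p = 0.0719 to 0.12), and leaving out any but Yki replicate 2 and Yki + pan RNAi replicate 2 ended that of Tim17b2 (0.0928 to 0.108). Among 7 genes that regulate mitochondrial biogenesis or growth, Cdk4 fell (10.25, 10.27 and 10.29 against 10.02, 10.05 and 10.07, −0.22 ± 0.04, adjusted p = 0.0115) and 0 rose. That share of 14.3% lies beside 13.4% of all features, and the list median was 0.10, with 5 of the 7 changes above 0. Without overlap of the groups 4 genes were higher and 2 lower, beside 23.4% and 21.6% of all features. The partner of Cdk4, CycD, was at −0.08 ± 0.05 (adjusted p = 0.264), and ewg, the fly counterpart of the nuclear respiratory factor NRF1, at 0.22 ± 0.07 (adjusted p = 0.0628). The gene ewg passed as higher without Yki replicate 1 (0.0125), after median centring (0.0246), after quantile normalization (0.0441), without dim features (0.0446) and with a trended, robust eBayes (0.023).

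Genes of oxidative phosphorylation, a few of which the mitoribosome translates, and of the cytoplasmic ribosome were set beside the mitoribosomal genes. Of 72 oxidative phosphorylation genes, taken by symbol, 47 fell (65.3%) and 2 rose, with a median of −0.26. Of the 68 mitoribosomal genes 45.6% fell, with a median of −0.19, and of all features 13.4% fell and 12.1% rose. The count of 47 was 34 to 43 in the fits without 1 array, where that of the mitoribosomal genes was 14 to 28. With each array centred on its median, 35 of the 72 fell and 4 rose, beside 17 and 0 of the 68. The lowest p-values of the oxidative phosphorylation list were those of the cytochrome c oxidase genes cype (−0.89 ± 0.08), COX5A, COX7B and levy. The 2 that rose without centring, UQCR-11L and SdhAL, are paralogs with low levels for which single arrays decided the call. The call of UQCR-11L ended without Yki replicate 1 or 2 or Yki + pan RNAi replicate 1 or 3 (adjusted p = 0.0519 to 0.0875), and that of SdhAL without any array but Yki + pan RNAi replicate 2 (0.0721 to 0.137). Of the 3 measured transcripts that the mitochondrial ribosome itself translates, COX2 fell (8.61, 8.38 and 8.57 against 7.80, 8.03 and 7.81, −0.64 ± 0.09, adjusted p = 0.0041). The levels of COX1 (10.66, 10.27 and 10.38 against 10.23, 10.57 and 10.15) overlapped between the groups (adjusted p = 0.559), and those of COX3 did not pass (−0.46 ± 0.15, adjusted p = 0.0665). Of 39 genes with symbols of cytoplasmic ribosomal proteins 8 fell (20.5%, beside 13.4% of all features) and 0 rose, with a median of −0.08. Those that fell included RpL34a (−0.33 ± 0.05), RpL39 (−0.19 ± 0.04), the dim RpL22-like and RpLP0-like (−0.37 ± 0.07). The list was taken by symbol, so genes with symbols ending in -like, such as RpLP0-like, need not encode proteins of the ribosome itself. The count of 8 was 3 without Yki replicate 3 or Yki + pan RNAi replicate 1, and 6 without each other array. The call of RpL39 ended without Yki replicate 3 or Yki + pan RNAi replicate 1 or 2 (0.0503 to 0.0571), that of RpLP0-like without Yki replicate 2 (0.0503), and that of RpL22-like without Yki + pan RNAi replicate 1 (0.0524). Differences between these lists and the mitoribosomal genes were not tested.

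**Figure D4:**
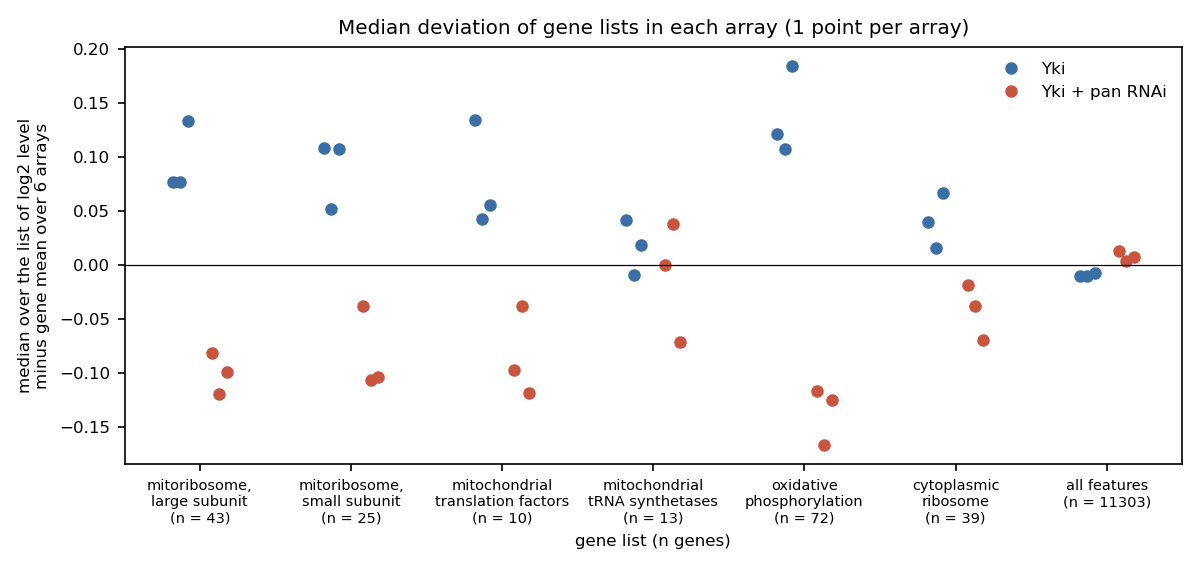
Median over each gene list (x axis) of the log2 level minus the gene's mean over the 6 arrays (y axis), 1 point per array, Yki in blue and Yki + pan RNAi in red. The points of both mitoribosomal subunits lie between 0.05 and 0.13 in Yki arrays and between −0.12 and −0.04 with pan RNAi, while the 2 groups overlap for the tRNA synthetases.

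By their titles the arrays held wing disc tissue. Marker levels do not identify it alone, since genes listed for other cell types, such as verm (12.06 or more), were also high. The 7 measured genes of the disc epithelium (ap, en, nub, pdm2, ptc, rn and vg) had levels of 7.77 or more in every array. Of these 7, 4 fell, nub (−1.12 ± 0.09), pdm2 (−1.22 ± 0.10), rn (−0.70 ± 0.06) and vg (−0.28 ± 0.07), and 2 rose, ap (0.37 ± 0.04) and ptc (0.36 ± 0.07). The call of vg ended without Yki replicate 1 or 2 or Yki + pan RNAi replicate 1 (adjusted p = 0.0642 to 0.073). The summed linear level of the 7 genes, on the log2 scale, was 13.04 to 13.08 in Yki arrays and 12.83 to 12.90 in pan RNAi arrays. Array correlations over all features were 0.994 to 0.996 within and 0.980 to 0.986 between groups. Marker sums of other cell types also moved with the groups. That of 4 myoblast markers lay between 11.14 and 11.27 in Yki arrays and between 10.03 and 10.21 in pan RNAi arrays, and 4 of 4 fell. That of 6 haemocyte markers was 9.69 to 9.93 against 10.04 to 10.31, with 4 higher and 2 lower. For 4 tracheal markers it was 13.58 to 13.65 against 13.20 to 13.31, with 3 lower. This sum follows verm, serp and Gasp, at 10.96 or more in every array, while btl was at 6.83 to 7.32, so it need not measure tracheal cells. The sums over 5 muscle markers (10.00 to 10.03 against 9.67 to 9.83, 1 lower) and over 4 neuron and glia markers (10.16 to 10.21 against 10.32 to 10.42, 1 higher) moved too. Each of them mostly follows its brightest gene, Mlc2 (−0.41 ± 0.06) and elav (0.25 ± 0.05), the only ones that passed. Of the others, bt and up had changes above 0 and Mlc1 and sls below 0 in muscle. In the neuron and glia list nSyb and repo were above 0 and brp below 0. Markers of fat body (2, 7.79 to 9.07 against 7.41 to 7.64) and salivary gland (1, 6.45 to 6.51 against 6.38 to 6.48) did not pass the test, and the lowest log2 level of any marker in these lists was 5.99. The part of these cell types and of the disc epithelium in the mitoribosomal changes was not tested.

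**Figure D5:**
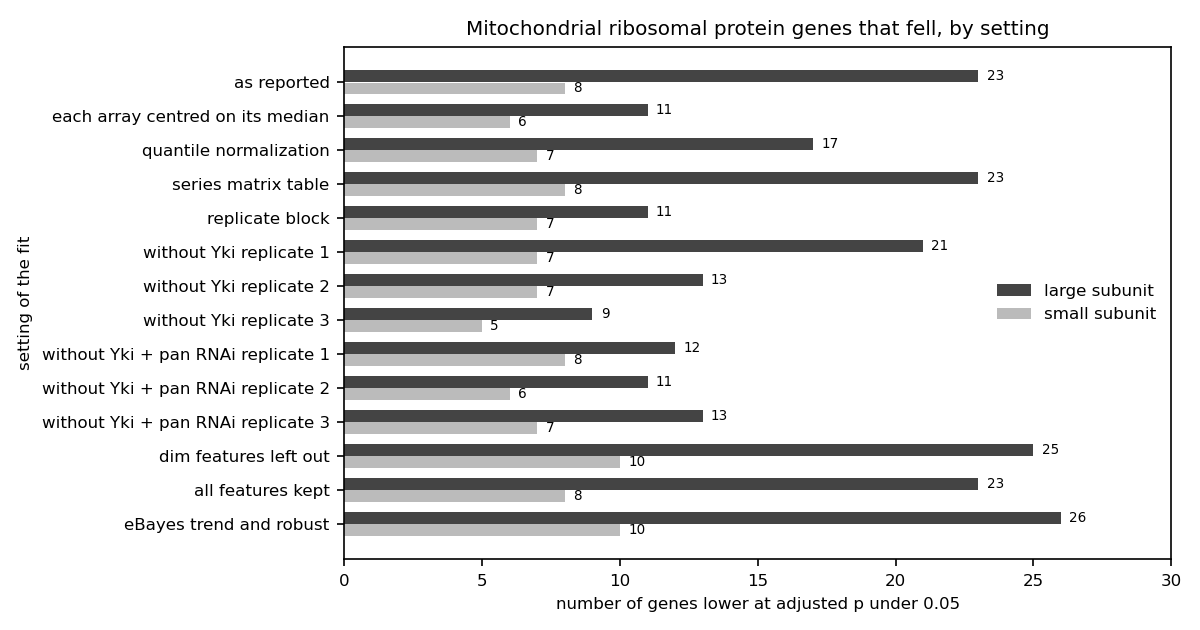
Number of mitoribosomal protein genes that fell (x axis) in the large (dark) and small (light) subunit under each setting of the limma fit (y axis). The counts run from 9 to 26 of the large and from 5 to 10 of the small subunit, and are lowest without Yki replicate 3.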

How the data were processed

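Wing disc RNA of 6 samples was measured on single-channel arrays labelled with biotin, 3 per group, grouped by sample title. The log2 expression levels were deposited by the authors in 2 tables of 11325 features whose values differ by at most 5.0e-09; per the labels, the submitters analysed the samples at gene level with limma. The handling of background, the normalization and the genome build are not stated in these labels or headers. With 3 arrays a group, precision is limited by their number.

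Features were named from the platform annotation, with symbols updated through Entrez numbers in RefSeq (Release 6 plus ISO1 MT). The brightest feature represented each gene, which left 11303 features. Groups were compared with limma 3.58.1 in R 4.3.3 (lmFit, eBayes, no covariate), adjusted by Benjamini-Hochberg over all features. Figures were drawn with matplotlib 3.10.9. The code was tested on simulated data.

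The members and lists were chosen with earlier results of these data known. Named were up to 12 genes per subunit with the lowest p among those past an adjusted p of 0.05, the 2 with the smallest change in each, mRpL12, tko and bonsai, and up to 4 per other list and direction. Genes named outside this rule, such as those given to account for all 68, overlapping genes, markers and COX1 to COX3, were chosen after their values were seen. Planned counts of promoter motifs were not run, since no sequence was used here.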

Additional observations from a re-analysis of the deposited data

How the results depend on the processing

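With the counts of falling large, small and all mitoribosomal genes at 23, 8 and 31, median centring gave 11, 6 and 17 and medians of −0.152, −0.085 and −0.141 against −0.206, −0.139 and −0.195. Before it, the array medians differed by −0.054 between the groups (pan RNAi minus Yki). Quantile normalization gave 17, 7 and 24 genes and medians of −0.177, −0.101 and −0.164. Centring also moved the features over all genes from 1518 lower and 1369 higher to 1086 and 2086, and quantile normalization to 1371 and 1623. Leaving out each array in turn gave 9 to 21 large, 5 to 8 small and 14 to 28 genes in all, with medians of −0.231 to −0.182, −0.194 to −0.12 and −0.204 to −0.178, and 979 to 1282 lower and 765 to 1153 higher features over all genes. The small subunit median was −0.194 without Yki + pan RNAi replicate 1. With the replicate number as a block, 11 large, 7 small and 18 genes in all fell, as did 1175 of all features. Same-numbered arrays deviated from their group means with correlations of −0.127, −0.098 and 0.162, and differently numbered arrays with −0.281 to 0.345. Deviations from a mean of 3 arrays depend on each other, so these values cannot decide whether the numbers pair the samples. The other table, all features kept, dim features left out and a trended, robust eBayes gave 31 to 36 genes. No alternative gave a rise past the adjusted p for any of the 68 genes, and the cause of the changes in count was not tested. Of 672 alternative values of the named genes, 67 lost the adjusted p and 0 of those that passed changed sign. The 672 include genes that had not passed, such as mRpL28 and tko, and the other table with its nearly equal values, neither of which could lose a call. Of the 31 members that fell, 18 lost the call in at least 1 fit without 1 array.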
